A study of Oryza sativa with 12 samples.

Results

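The leaf transcriptome of the osnadk1 rice mutant was compared between drought and normal growth, using 6 of the 12 arrays of the series. These were the 3 osnadk1 arrays of drought-treated plants and the 3 of plants under normal growth, chosen by their genotype and treatment labels. The osnadk1 plants carry a homozygous T-DNA insertion in the second intron of OsNADK1, which encodes an NAD kinase, the enzyme that phosphorylates NAD to NADP. Only 1 insertion line was used, so effects of the disrupted gene and of anything else carried by that line cannot be told apart. The other 6 arrays held the wild type (WT) parent, Oryza sativa ssp. japonica cv. Dongjin, under the same conditions, again 3 of each, and their labels mark them as re-analysed. All plants were 2.5 months old by the labels, and osnadk1 and WT plants shared pots. The youngest fully expanded leaves were taken on day 0, at a soil moisture of 47.3%, as the normal group and on day 15 without water, at 8.5%, as the drought group. Drought and the 15 days of further growth therefore cannot be told apart. The labels call the replicates biological without stating which plants or pots they came from, and the p-values therefore cover array-to-array spread alone.

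A drying rice leaf accumulates the hormone abscisic acid (ABA), which acts through receptors, protein phosphatases 2C and SAPK kinases to close stomata and to switch on protective genes. Among the best known of these are the dehydrins and other late embryogenesis abundant (LEA) proteins, which shield membranes and proteins as water is lost. NADP and its reduced form NADPH, the products downstream of NAD kinase, feed photosynthesis and the antioxidant cycles that remove reactive oxygen. Jasmonate, a second stress hormone, acts by destroying JAZ repressors, and JAZ genes are themselves jasmonate-induced.

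Signals are log2 MAS5 values, the probe-set summary of Affymetrix arrays, so that 1 unit is a 2-fold difference. A probe set is the group of probes that reports 1 transcript, and those with names ending in _s_at or _x_at can also bind related transcripts. Of 57194 probe sets without controls, 32064 reached the median of their array on at least 3 of the 12 arrays and were tested, and 18652 of these map to 1 gene each, 15388 genes in all. Array medians lay between 5.08 and 5.43, so values well under 5 are dim. Summed signals of photosynthesis genes, the leaf mesophyll markers, lay between 17.75 and 18.50 on all 12 arrays, and overlapped between treatments.

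The normal-growth arrays of the mutant did not form 1 group. Array descriptions begin with 1 of 2 prefixes, here called A and B, and osnadk1 replicates 1 and 2 of both treatments have prefix A while replicate 3 of both has prefix B. Along the first principal component, which held 34.1% of the variance, osnadk1 normal arrays 1 and 2 scored -121.2 and -131.5 and WT normal array 1, also of prefix A, scored -140.6. The other 9 arrays scored 26.7 to 66.5. The morning clock gene CCA1/LHY read 13.34 and 13.02 on osnadk1 normal arrays 1 and 2, 8.53 on array 3, and 8.32, 8.18 and 8.04 under drought. The evening clock gene PCL1 was the reverse, at 6.14, 6.90 and 14.66 under normal growth and 14.60, 14.56 and 14.85 under drought. Both genes thus set the same 2 mutant arrays of normal growth apart from the third and from all drought arrays, and their part in the results below was not tested. For many of the genes and lists below, the difference is therefore also given in prefix A (2 arrays against 2) and in prefix B (1 against 1), or without the 3 prefix A arrays of normal growth.

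**Figure D1:**
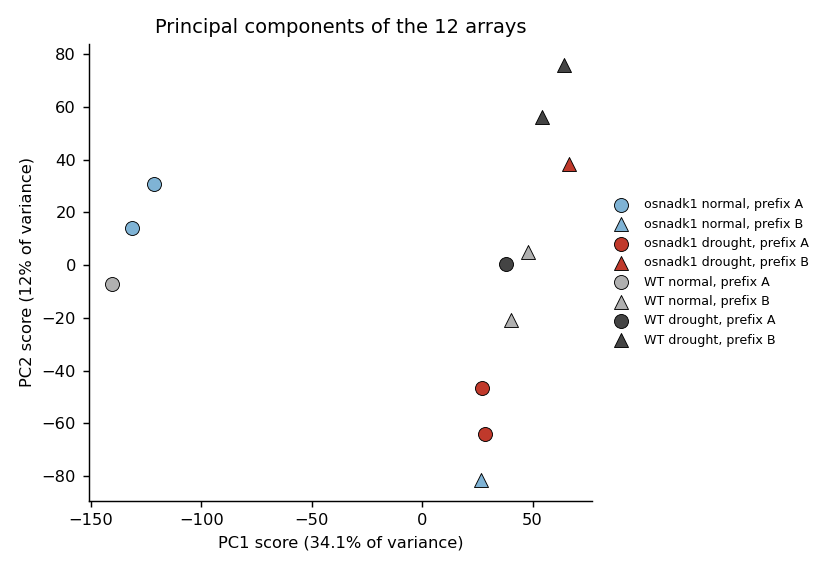
Scores of the 12 arrays on the first (x) and second (y) principal components, coloured by genotype and treatment; circles are arrays of label prefix A and triangles of prefix B. The 3 prefix A arrays of normal growth lie at -121.2 to -140.6 on the first component and the other 9 at 26.7 to 66.5.

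The targeted gene was low on every mutant array. OsNADK1 read 3.96, 5.16 and 4.78 in osnadk1 under normal growth and 5.65, 5.45 and 4.39 under drought, against 9.43 to 10.27 on the 6 WT arrays. The mutant and WT levels did not overlap. Within the mutant the treatments overlapped, with a drought minus normal difference of 0.53 ± 0.36 (SE, n = 3 and 3, adjusted p = 0.456).

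Few single genes passed the test across all 6 mutant arrays, and the 3 with a gene assigned were 2 transporter genes that fell and 1 uncharacterised gene that rose. With label prefix as a block, 2 probe sets rose (0.00624%) and 4 fell (0.0125%) at an adjusted p of 0.05, together 0.0187% of those tested. At an unadjusted p of 0.05, 6060 probe sets (18.9%) passed, and 1626 (5.07%) were higher and 1091 (3.4%) lower when a 2-fold difference was also required. The copper transporter gene COPT1, whose protein brings copper into the cell, read 14.80, 14.70 and 13.23 under normal growth and 11.53, 11.43 and 9.87 under drought. Its drought arrays all lay below its normal arrays, a fall of 9.84-fold (log2 difference -3.30 ± 0.33, adjusted p = 0.0158). OsPIN5a, a member of the PIN family of auxin carriers, read 11.57, 11.49 and 10.69 and then 9.43, 9.33 and 8.02. It fell 5.02-fold (-2.33 ± 0.21, adjusted p = 0.00839), again without overlap. LOC4333711, a protein-coding gene on chromosome 3 with no further annotation here, rose 2.77-fold, from 9.57, 10.00 and 10.38 to 11.24, 11.20 and 11.91 (1.47 ± 0.17, adjusted p = 0.0262).

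The other 3 probe sets match no single gene in the reference. The probe set with the smallest p of all fell from 11.91, 12.09 and 9.97 to 8.63, 8.36 and 6.99 (-3.33 ± 0.16, adjusted p = 4.43e-05). A second fell from 12.80, 13.44 and 12.13 to 11.46, 10.89 and 10.14 (-1.96 ± 0.22, adjusted p = 0.0252). The third rose from 1.03, 2.19 and 2.01, which is dim, to 6.11, 6.28 and 7.25 (4.81 ± 0.56, adjusted p = 0.0305). None of the 6 showed overlap between treatments, and 5 of them also passed in prefix A and in prefix B taken alone. The exception was the dim probe set that rose, with an adjusted p of 0.0531 in prefix B. All 6 kept their call when the 3 prefix A arrays of normal growth were left out. Overlap and the prefixes were judged on the same arrays that gave the calls, so they are no added support. Of all probe sets, 10.5% were higher and 6.41% lower under drought without overlap. The count of 6 was not stable to the model, since 0 passed with no prefix block. Leaving out 1 osnadk1 array gave between 1 and 2951, the highest without normal replicate 3.

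**Figure D2:**
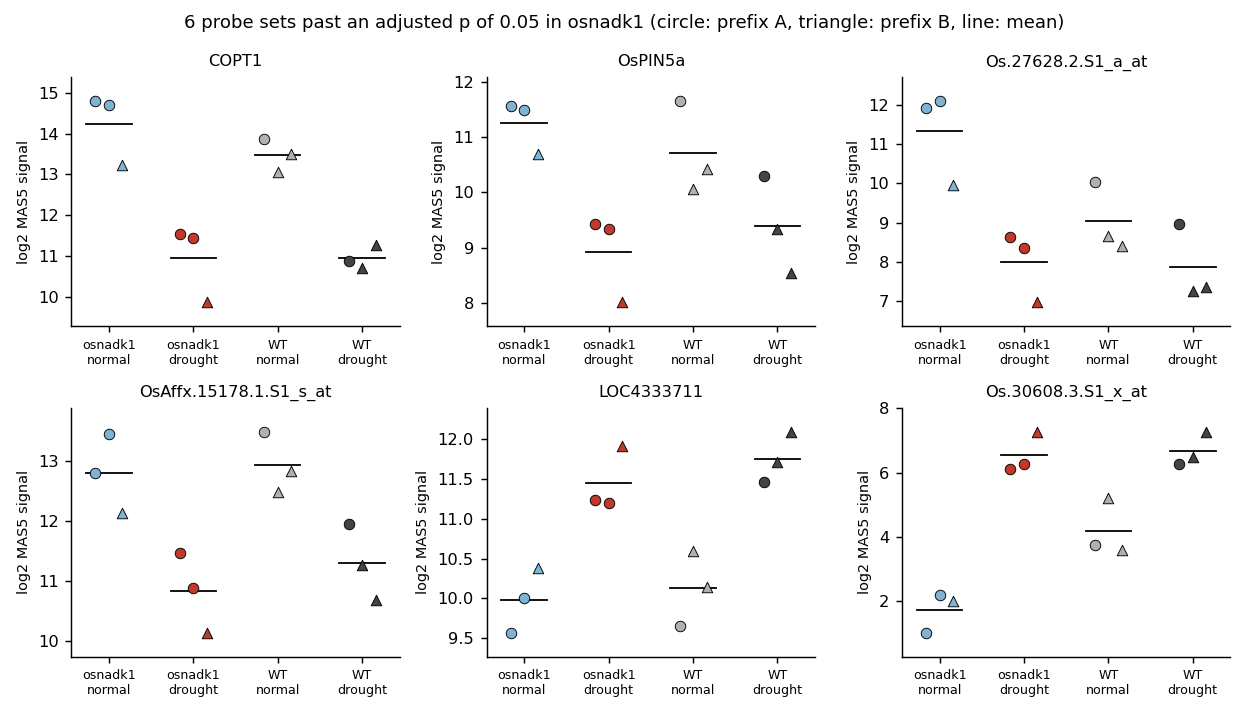
Log2 MAS5 signal (y) of the 6 called probe sets on each array by group (x), with circles for prefix A, triangles for prefix B and lines for group means; the 3 without a gene are titled by their array identifiers. COPT1 lay between 13.23 and 14.80 under normal growth in osnadk1 and between 9.87 and 11.53 under drought.

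The response was also taken within each prefix. In a fit with a separate mean for each genotype, treatment and prefix, 5484 probe sets rose (17.1%) and 3253 fell (10.1%) with drought in osnadk1 in prefix A, and 499 rose (1.56%) and 282 fell (0.879%) in prefix B. In prefix B the spread came from the groups that hold 2 arrays, so its single arrays are assumed to vary like those, and the counts of the 2 prefixes differ in precision. The median absolute difference over all probe sets was 0.454 in prefix A and 0.331 in prefix B. The prefix A and prefix B differences had a Pearson correlation of -0.0096 across the 32064 probe sets, which are not independent replicates. The response itself differed between prefixes for 4936 probe sets (15.4%, adjusted p of 0.05). Probe sets past the test in both prefixes numbered 406 (1.27%), of which 114 rose in both (0.356%), 84 fell in both (0.262%) and 208 went in opposite directions (0.649%). These sets were chosen for their direction on the same 6 arrays, so they are described without a further test. Drought arrays that did not overlap with normal arrays were seen for 10.5% (higher) and 6.41% (lower) of all probe sets, and 1.53% rose and 0.243% fell without the prefix A arrays of normal growth.

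**Figure D3:**
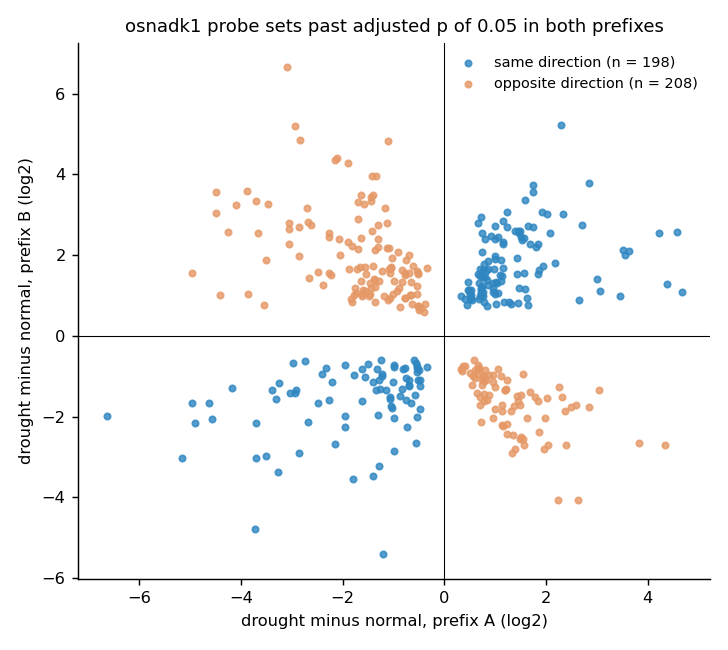
Drought minus normal difference in osnadk1 (log2) in prefix A (x) and prefix B (y) for the 406 probe sets past an adjusted p of 0.05 in both. The 198 with the same direction (blue) and the 208 with opposite directions (orange) are about equal in number.

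Named genes that rose in both prefixes included ILL8, OsWRKY62, MFT1 and 2 chitinase genes. None of the genes named here passed the limma test over all 6 mutant arrays. For the probe sets given, the adjusted p of that test lay between 0.0812 for MFT1 and 0.33 for PRXIIE-2. ILL8, of the family of hydrolases that free auxin from amino acid conjugates, read 5.80, 5.37 and 8.81 under normal growth and 10.40, 9.91 and 11.38 under drought. Its rise was 4.57 in prefix A (adjusted p = 7.23e-06) and 2.57 in prefix B (adjusted p = 0.015). The groups did not overlap, though normal array 3 stood more than 3 units above the other 2. OsWRKY62, a WRKY transcription factor known in rice as a regulator of defence, read 9.70, 10.21 and 8.64 and then 11.40, 11.57 and 11.01, with rises of 1.53 and 2.37. The chitinase genes Cht4 (1.48 and 2.60) and Cht5 (1.05 and 2.46), 2 of 10 chitinase and PR protein genes tested where 0.533% of all genes rose in both prefixes, rose likewise, as did NPR3, a relative of the salicylic acid receptor NPR1 (0.79 and 0.83). MFT1, related to the flowering regulators of the FT family, read 9.36, 10.29 and 10.21 and then 11.81, 11.47 and 12.42, with no overlap. BURP3, which encodes a BURP-domain protein, rose by 1.12 and 1.89. EL2, a cyclin-dependent kinase inhibitor, rose by 0.86 and 1.87. PRXIIE-2, a peroxiredoxin, rose by 0.73 and 1.18, and the nucleoredoxin OsNrx2 by 1.03 and 1.32.

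Genes that fell in both prefixes included enzyme, carrier and transcription factor genes. None of those named here passed the limma test over all 6 mutant arrays. Their adjusted p in that test lay between 0.068 for ZEP and 0.111 for BGLU22. The zeaxanthin epoxidase gene ZEP, whose product acts early in the route to ABA, read 13.39, 13.58 and 12.73 under normal growth and 12.31, 12.10 and 11.64 under drought. It fell by 1.28 in prefix A (adjusted p = 9.33e-05) and by 1.09 in prefix B (adjusted p = 0.0177), and its groups did not overlap. PPDKB, which encodes pyruvate orthophosphate dikinase, read 13.34, 13.65 and 11.67 and then 11.12, 11.06 and 10.73. BASS2, which in Arabidopsis carries pyruvate into the plastid, fell by 1.95 and by 0.72. The ammonium transporter gene AMT3;2 fell by 1.05 and by 1.73, the SBP-family transcription factor gene SPL9 by 1.41 and by 1.13, and the beta-glucosidase gene BGLU22 by 4.56 and by 2.06. For ZEP, PPDKB, BASS2 and BGLU22 the 2 prefix A normal arrays were the highest of the 6, and the part of that difference was not tested.

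Several dehydrin and LEA genes were highest on drought array 3 of the mutant. Of 9 such genes on the array 7 were tested, and none passed the test across the 6 arrays. Their median difference was 2.02, against 0.11 over all 15388 genes, and it was 1.62 in prefix A and 2.83 in prefix B. It was smaller, at 1.19, with low values raised to the 25th percentile of each array, at 1.004 with a pseudocount of 16, and at 1.41 without drought array 3. For 3 of the 7 the drought arrays all exceeded the normal arrays, as for 12% of all genes. RAB21, the dehydrin also called RAB16A, read 1.52, 2.03 and 0.92 under normal growth and 1.98, 2.20 and 9.82 under drought. Its drought array 3 stood far above the other 5 mutant arrays, and it rose in prefix B (8.90, adjusted p = 0.00982) but not detectably in prefix A (0.32, adjusted p = 0.804). A second probe set of RAB21 read 4.58, 2.38 and 3.28 and then 5.52, 4.75 and 9.50, without overlap. RAB16B followed, with 0.81, 0.27 and 0.00 and then 3.41, 2.64 and 7.90. The LEA gene LEA19, known as OsLEA3, read 0.41, 0.61 and 3.70 and then 1.60, 2.52 and 7.28. Most of these low values are dim, which makes their log2 differences imprecise. DHN1, which is expressed in both treatments, read 10.83, 10.45 and 10.05 and then 10.43, 10.39 and 11.81.

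Several of these genes had higher values on WT drought arrays 2 and 3 than on any mutant array. In WT, RAB21 read 1.03, 1.52 and 1.97 on the normal arrays and 6.85, 11.77 and 13.03 on the drought arrays. The lowest of these drought values came from the prefix A array. It rose in WT by 9.04 ± 1.54 (adjusted p = 0.0394) and LEA19 by 6.82 ± 0.95 (adjusted p = 0.022). The median over the 7 genes was 3.97 in WT. The genotype difference in the response did not pass the test for RAB21 (-5.87 ± 2.18, adjusted p = 0.79) or LEA19 (-4.59 ± 1.34, adjusted p = 0.775). Summed over the list, the level on mutant drought arrays was 11.16, 10.83 and 12.48, and on WT drought arrays 11.44, 13.20 and 14.24. Summed signals of root marker genes were 14.63, 13.49 and 14.07 in osnadk1 under normal growth. Under drought they were 13.64, 14.05 and 11.83, lowest on the array with the highest LEA level. On WT drought arrays they were 12.04, 12.68 and 12.75, there lowest on the array with the lowest LEA level. The part of the root markers was not tested. For the LEA list, prefix A gave the lowest value in both genotypes, and 2 of the mutant's drought arrays against 1 of the WT's carry that prefix, so genotype and prefix are not balanced on these 6 arrays.

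Genes that make, break down or sense ABA gave no common direction. ABA8OX1, whose enzyme inactivates ABA, read 7.02, 6.70 and 7.33 under normal growth and 9.21, 8.97 and 9.06 under drought. The 3 drought arrays lay above all normal arrays, but the difference of 2.06 ± 0.44 missed the threshold (adjusted p = 0.0994). It passed in prefix A (2.23, adjusted p = 0.0157) and not in prefix B (1.73, adjusted p = 0.316). Among 18 genes for ABA receptors, clade A-type phosphatases and SAPK kinases, 7 rose and 3 fell in prefix A (22.1% and 13.1% of all genes did). The median was 0.32 over all 6 arrays, 0.25 in prefix A and 0.12 in prefix B. The kinase gene SAPK9 read 7.39, 7.55 and 13.12 and then 12.77, 12.88 and 12.90, so that only the 2 prefix A normal arrays were low. SAPK7 was alike, at 6.81, 6.58 and 9.98 and then 9.69, 9.84 and 10.09. Without the prefix A arrays of normal growth the SAPK9 difference was -0.17 (adjusted p = 0.595). P5CS1, the key enzyme of proline synthesis, differed by -0.81 in prefix A (adjusted p = 0.00384) and by 0.54 in prefix B (adjusted p = 0.244). TPP1, a trehalose-6-phosphate phosphatase, was 1.47 ± 0.58 higher without overlap (adjusted p = 0.212).

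JAZ repressor genes were mostly higher under drought in the mutant. For 9 of 13 the 3 drought arrays all lay above the 3 normal arrays and for 1 all below, beside 12% and 7.37% of all genes. None passed the test over all 6 arrays, while 7 rose and 2 fell in prefix A (22.1% and 13.1% of all genes) and 0 passed in prefix B (2.21% and 0.994%). The median difference was 1.49 over all 6 arrays, 1.28 in prefix A, 0.86 in prefix B and 0.80 without the prefix A arrays of normal growth, against -0.15 in WT. JAZ12 read 8.67, 8.24 and 10.04 under normal growth and 10.63, 11.12 and 11.85 under drought (2.22 ± 0.34, adjusted p = 0.068). JAZ13 read 5.67, 5.76 and 6.64 and then 8.03, 8.68 and 9.52. JAZ6 had smaller but tighter values, at 11.27, 11.39 and 11.62 and then 11.99, 12.28 and 12.24 (0.74 ± 0.13, adjusted p = 0.0798). JAZ2 went the other way, at 10.07, 10.87 and 9.85 and then 8.55, 8.82 and 8.94. In WT, JAZ12 was already at 9.37, 11.62 and 10.52 under normal growth and read 11.00, 11.67 and 11.18 under drought, which overlap. Of 12 jasmonate synthesis genes, 5 had drought arrays all above the normal arrays (12% of all genes), among them AOS1, an allene oxide synthase gene, at 7.24, 7.47 and 7.39 and then 7.92, 8.12 and 8.16. The other allene oxide synthase gene, AOS2, read 7.53, 7.09 and 3.66 and then 6.42, 5.06 and 6.07, which overlap. The median of the 12 was 0.38, with 0.50 in prefix A, 0.14 in prefix B and 0.15 without the prefix A arrays of normal growth.

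**Figure D4:**
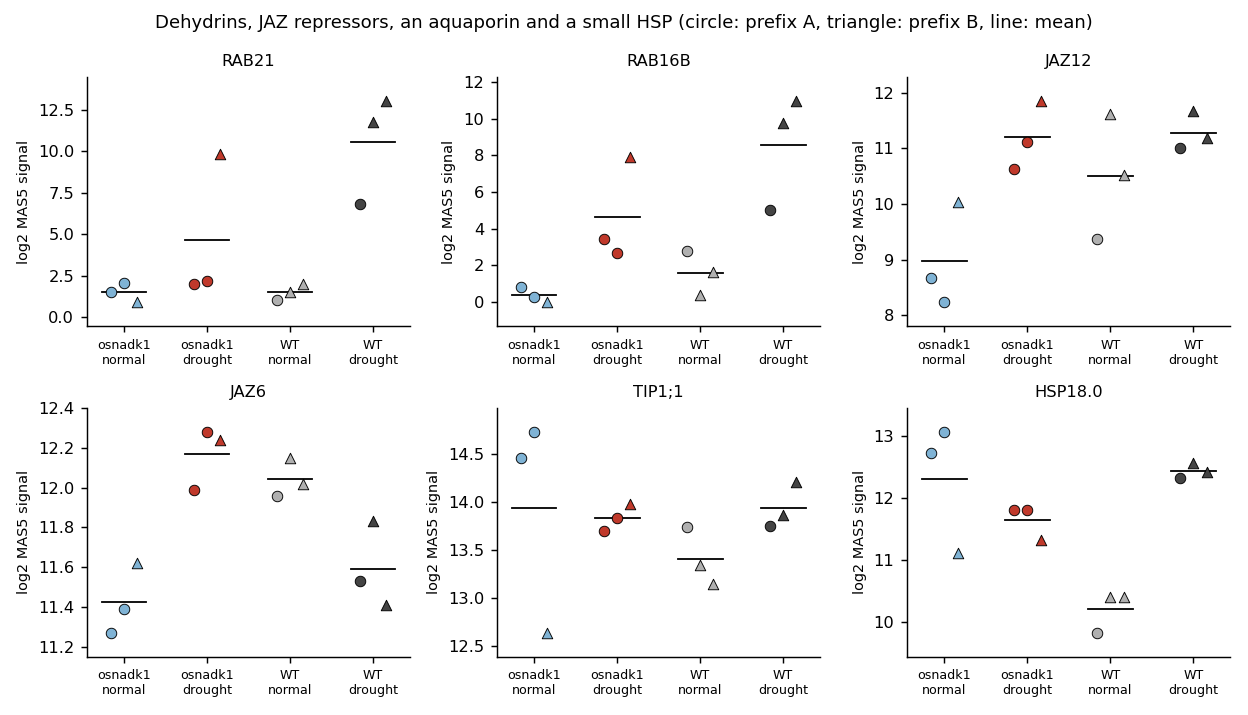
Log2 MAS5 signal (y) on each array by group (x) for RAB21, RAB16B, JAZ12, JAZ6, the aquaporin gene TIP1;1 and the small heat shock protein gene HSP18.0, with circles for prefix A, triangles for prefix B and lines for group means. RAB21 was at 9.82 on mutant drought array 3 and at 1.98 and 2.20 on the other 2, and the JAZ6 drought arrays lay above the normal arrays in osnadk1 and below them in WT.

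No antioxidant enzyme gene passed the test over the 6 mutant arrays. SODCC.2, a cytosolic copper-zinc superoxide dismutase, read 9.53, 10.46 and 11.86 under normal growth and 12.83, 12.57 and 13.49 under drought (2.34 ± 0.46, adjusted p = 0.0854). The plastid form sodCp read 11.72, 12.72 and 12.82 and then 13.79, 13.70 and 14.17 (1.47 ± 0.24, adjusted p = 0.068). CCS, the chaperone that loads copper into these enzymes, read 9.45, 10.48 and 11.36 and then 12.23, 11.95 and 12.32. None of the 3 overlapped between treatments. Differences in prefix A and prefix B were 2.70 and 1.63 for SODCC.2, 1.53 and 1.35 for sodCp, and 2.12 and 0.96 for CCS. Without the prefix A arrays of normal growth they were 1.44 (adjusted p = 0.0932), 1.17 (adjusted p = 0.0253) and 0.82 (adjusted p = 0.18). Of 21 antioxidant enzyme genes 7 had drought arrays all above and 2 all below the normal arrays, beside 12% and 7.37% of all genes. The median was 0.23, and 0.31 in prefix A, 0.09 in prefix B and 0.10 without the prefix A arrays of normal growth. In prefix A 8 rose and 4 fell, against 22.1% and 13.1% of all genes, and in prefix B 1 rose, against 2.21%.

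Among 35 metal transporter genes, 10 had drought arrays all below the normal arrays and 2 all above, beside 7.37% and 12% of all genes. In prefix A 4 rose and 8 fell, against 22.1% and 13.1% of all genes. The median was -0.21, and -0.02 in prefix A, -0.21 in prefix B and 0.03 without drought array 3. Besides COPT1, the copper transporter COPT2 read 11.22, 7.34 and 8.58 and then 6.32, 6.12 and 4.87 (-3.28 ± 0.93, adjusted p = 0.134). The zinc transporters ZIP1 (-3.41 ± 1.11) and ZIP2 (-1.17 ± 0.33) and the yellow stripe-like transporter YSL16 (-1.23 ± 0.41) were also lower without overlap. COPT1 alone of the 35 fell in both prefixes, as did 0.364% of all genes. IRT1, an iron transporter, was 1.44 ± 0.59 higher. Of 34 glutaredoxin and thioredoxin genes, 7 had drought arrays all below and 0 all above, beside 7.37% and 12% of all genes. In prefix A 2 rose and 13 fell, against 22.1% and 13.1% of all genes. The median of this list was -0.30 in prefix A and 0.01 in prefix B. Thioredoxin f, which activates enzymes of carbon fixation in the light, read 14.69, 14.81 and 13.10 and then 12.75, 12.57 and 12.60, with the 2 prefix A normal arrays the highest.

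**Figure D5:**
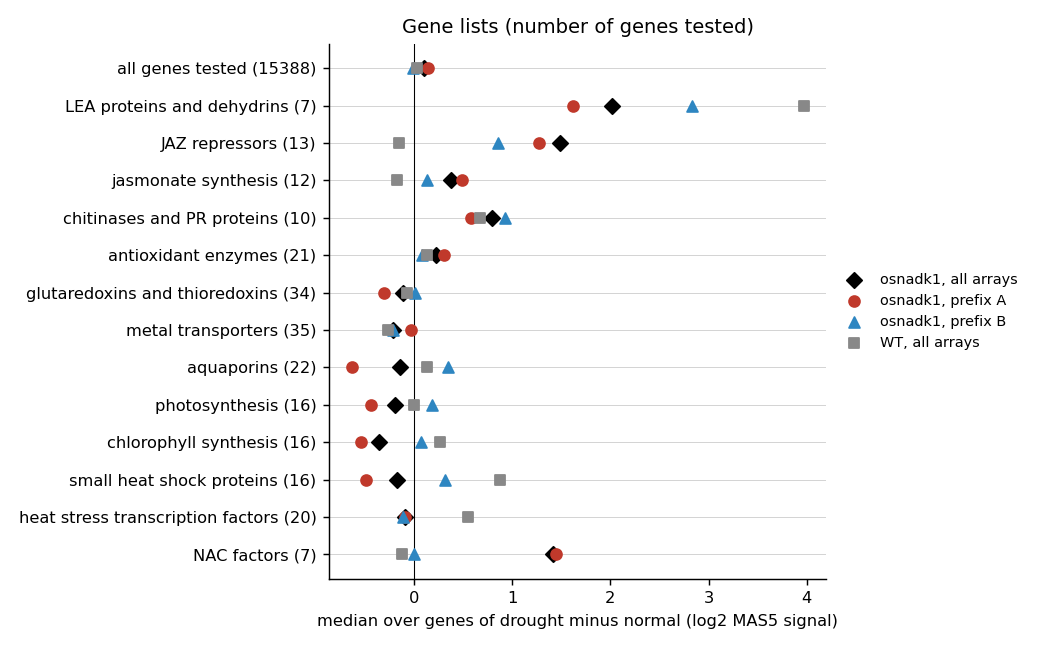
Median over the genes of each list (y, number of genes tested in brackets) of the drought minus normal difference in log2 MAS5 signal (x) for osnadk1 over all arrays, in prefix A, in prefix B, and for WT. The LEA list lay at 2.02 in osnadk1 and 3.97 in WT, the JAZ list at 1.49 and -0.15, and the aquaporin list at -0.63 in prefix A and 0.35 in prefix B.

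Of 22 aquaporin genes, which encode water channels, 5 passed the test with opposite signs in the 2 prefixes. In the list, 11 fell and 2 rose in prefix A (13.1% and 22.1% of all genes), 6 rose and 0 fell in prefix B (2.21% and 0.994% of all genes), and the opposite signs compare with 0.851% of all genes. TIP1;1, of the vacuolar membrane, read 14.46, 14.73 and 12.64 under normal growth and 13.70, 13.83 and 13.98 under drought. Its drought arrays lay between the normal arrays of the 2 prefixes, and it fell by 0.83 in prefix A and rose by 1.34 in prefix B. TIP2;2 fell by 1.69 and rose by 2.16, PIP1;1 fell by 1.61 and rose by 0.98, and PIP2;2 fell by 1.74 and rose by 1.07. Lsi1, a silicon channel of the family, fell by 0.62 and rose by 1.73. PIP2;1 depended on its probe set, since 1 rose in both prefixes (1.56 and 2.43) and another fell by 2.01 in prefix A and was 1.22 higher in prefix B. Outside the family, the same crossing was seen for PAL, the entry enzyme of phenylpropanoid synthesis, at 12.75, 13.11 and 10.19 and then 10.94, 11.30 and 12.43. It was also seen for the nitrate reductase gene NIA1, the NADP-malic enzyme gene NADP-ME and the zinc-finger gene SAP1. The NADPH-producing 6-phosphogluconate dehydrogenase G6PGH1 crossed the other way, up by 0.58 in prefix A and down by 0.60 in prefix B.

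Photosynthesis and chlorophyll genes went both ways in prefix A, where more fell than rose. Of 16 photosynthesis genes, 9 fell and 2 rose in prefix A (13.1% and 22.1% of all genes). Their median was -0.44 in prefix A and 0.18 in prefix B. Of 16 chlorophyll synthesis genes 8 fell and 2 rose in prefix A, against 13.1% and 22.1% of all genes. The median of these was -0.53 in prefix A and 0.07 in prefix B. CAO, which makes chlorophyll b, read 14.09, 13.88 and 10.27 under normal growth and 10.16, 10.24 and 9.74 under drought. CHLH, a subunit of the magnesium chelatase, read 14.41, 14.37 and 11.70 and then 12.01, 11.64 and 11.41. PSAG, a subunit of photosystem I, read 13.47, 13.32 and 10.23 and then 9.80, 9.67 and 10.01. In each, the third normal array stood near the drought arrays and far from the other 2 normal arrays. Over the 3 genes, WT normal array 1 read 13.65, 13.84 and 13.70 and the other 2 WT normal arrays 10.11 to 11.45.

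Small heat shock protein genes, which encode chaperones for unfolding proteins, did not rise together in the mutant. Of 16 tested, 1 rose and 7 fell in prefix A, 2 rose in prefix B (2.21% of all genes, with 22.1% up and 13.1% down in prefix A), and medians were -0.48 and 0.32, against 0.88 over all WT arrays. For 3 of the 16 the mutant drought arrays all lay above the normal arrays and for 0 all below, beside 12% and 7.37% of all genes. Without the prefix A arrays of normal growth the mutant median was 0.53. Each WT group holds 1 prefix A array and each osnadk1 group 2, so genotype and prefix are not balanced here. HSP18.0 read 12.72, 13.06 and 11.11 in the mutant under normal growth and 11.80, 11.80 and 11.31 under drought. In WT it read 9.82, 10.40 and 10.39 and then 12.32, 12.56 and 12.42, a rise of 2.23 ± 0.39 (adjusted p = 0.041) without overlap. HSP17.9A rose in WT by 1.98 ± 0.21 (adjusted p = 0.00759) and differed by 0.20 ± 0.21 in the mutant (adjusted p = 0.641). The difference of responses had an adjusted p of 0.684 for both genes. Of 20 heat stress transcription factor genes the median was -0.09 in osnadk1 and 0.55 in WT. HSFB1 was 1.32 ± 0.21 higher in the mutant (adjusted p = 0.068) and rose in WT by 1.59 ± 0.21 (adjusted p = 0.0171).

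Several developmental and transport genes had differences of over 2 units that missed the threshold. OsMADS14, IAA12 and NRT2.3 are single members of lists with small medians. These were -0.04 over 14 MADS-box genes, 0.16 over 46 auxin genes and 0.10 over 17 nitrate and ammonium genes, against 0.11 over all genes. The 4 probe sets of OsMADS14, a MADS-box gene of the floral transition, were 3.17 to 4.72 higher under drought, each without overlap. Lack of overlap was among the grounds for naming genes, and 10.5% of all probe sets were higher under drought without overlap. For OsMADS14, 1 probe set read 6.60, 6.15 and 6.60 and then 9.29, 9.82 and 9.76. IAA12, an Aux/IAA repressor of auxin signalling, read 3.97, 2.09 and 6.72 and then 7.78, 7.93 and 8.85 (3.92 ± 0.63, adjusted p = 0.068). The nitrate transporter gene NRT2.3 read 4.87, 5.58 and 6.56 and then 8.50, 8.69 and 7.98 (2.72 ± 0.44, adjusted p = 0.068). Without the prefix A arrays of normal growth IAA12 was 2.31 and NRT2.3 was 1.37 higher, which rests on 1 remaining osnadk1 normal array. The phosphate transporter gene OsPht1;3 had a difference under 2 units, 1.85 over the 6 arrays (limma adjusted p = 0.118). It was 1.24 and 3.08 higher in prefix A and prefix B.

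The study followed up genes linked to drought tolerance that it described as changed in the mutant on these arrays, so their values are not independent evidence. OsNAC9, also among them, was not analysed here. By quantitative PCR, the study described OsDREB1B, OsWRKY21, OsWRKY70, OsSAUR2, OsCML16 and OsCCD1 as decreased in osnadk1 by drought. It described OsMYB, OsWRKY42, OsNAC9 and OsRSUS1 as increased. On the arrays the former genes all had higher means under drought, some with overlap. The PCR used younger plants and a shorter time without water, so the 2 sets of values are not like for like. OsSAUR2, an auxin-responsive SAUR gene, read 5.10, 2.82 and 5.64 in osnadk1 under normal growth and 8.54, 7.80 and 8.87 under drought (3.88 ± 0.58, adjusted p = 0.068). In WT it read 8.84 to 9.50 and then 8.45 to 9.31, so the mutant's drought arrays lay near the WT range and its normal arrays below it. OsWRKY21 was 3.08 ± 0.55 higher (adjusted p = 0.0798) and the calmodulin-like gene OsCML16 1.78 ± 0.26 higher (adjusted p = 0.068), both without overlap. OsDREB1B, a cold- and drought-related factor, read 8.39, 7.76 and 5.61 and then 9.83, 7.96 and 8.60, which overlap. OsRSUS1, a sucrose synthase gene, was 1.53 ± 0.38 and 1.29 ± 0.54 higher by its 2 probe sets. OsMYB (1.38), OsCCD1 (1.07), OsWRKY42 (0.83) and OsWRKY70 (0.31) overlapped between treatments.

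The drought response of osnadk1 was set against that of WT in 1 fit. In WT, 120 probe sets rose (0.374%) and 66 fell (0.206%). The difference between the genotypes' responses passed for 0 of 32064 probe sets with limma at an adjusted p of 0.05, and 1958 (6.11%) had an unadjusted p under 0.05. This count of 0 became 285 without the prefix A arrays of normal growth and 30 without osnadk1 normal replicate 3. The WT count of 186 became 1706 without those prefix A arrays and 2 with no prefix block. The smallest adjusted p was 0.0867, for the unmapped probe set that also had the smallest p in the mutant, which fell in WT by 1.18 ± 0.16 against 3.33 ± 0.16 in the mutant. COPT1 fell in WT by 2.54 ± 0.33 (adjusted p = 0.0171), OsPIN5a by 1.33 ± 0.21 (adjusted p = 0.0328), and LOC4333711 rose by 1.63 ± 0.17 (adjusted p = 0.00759). For these 3 genes the genotype difference in the response had adjusted p of 0.821, 0.775 and 0.9.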

How the data were processed

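RNA of 12 rice leaf samples was hybridised to 1-colour Affymetrix rice arrays. The authors deposited log2 MAS5 signals for 57381 probe sets, which were used as deposited after removing 123 AFFX and 64 RPTR control probe sets. Detection calls, read depth and scanner intensities were not used here, so precision is limited by the number of arrays, 3 in each group. Probe sets at or above the median of their array on 3 arrays or more were tested with limma 3.58.1 in R 4.3.3 (data.table, 1.17.8; linear model of 4 groups on all 12 arrays, label prefix as a block, eBayes with a trend, 7 residual degrees of freedom, Benjamini-Hochberg adjustment, threshold 0.05). The drought minus normal difference in osnadk1, in WT and between them was taken from this fit. A fit with 8 means (4 residual degrees of freedom), added after seeing the data, gave each prefix separately. That the prefix marks a processing unit was not stated in the labels. The block does not change the mean differences. Where a gene had several probe sets, the one with the highest mean stood for it in lists. The study's own thresholds were a 2-fold change and p of 0.05. Gene names came from GEO's platform annotation joined by gene ID to RefSeq (ASM3414082v1), and 22436 probe sets had 1 gene there. Genes were named where they passed the test, had the smallest p without overlap, ranked first in a list, were named by the study, or passed in both prefixes (the last chosen after values were seen). The members and gene lists were chosen with earlier results of these data known. The fit was also run on simulated data in which the prefix effect was the same in both treatments. That run does not cover a response that differs between prefixes, as seen here. Alternatives are given in the closing section.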

Additional observations from a re-analysis of the deposited data

Results flagged for a closer look

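JAZ6 and Lsi6 stood out because their drought arrays all lay above the normal arrays in osnadk1 and all below them in WT. JAZ6 was 0.74 higher under drought in osnadk1 and 0.45 lower in WT, at 11.96, 12.15 and 12.02 and then 11.53, 11.83 and 11.41 (difference of responses 1.199 ± 0.186, adjusted p = 0.684). Lsi6, a silicon transporter of the aquaporin family, read 11.47, 11.75 and 11.82 and then 12.09, 12.49 and 12.12 in osnadk1, and 11.76, 12.31 and 12.06 and then 10.98, 10.57 and 11.53 in WT (difference 1.57 ± 0.331, adjusted p = 0.704). Neither difference passed the adjustment. The third result stood out because the osnadk1 response differed between label prefixes for 4936 probe sets at an adjusted p of 0.05, 2728 higher and 2208 lower in prefix A.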

How the results depend on the processing

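The osnadk1 count of 6 stayed at 4 to 9 under quantile normalization, median centring, other filters, the floor, the pseudocount and other variance models. The count was 14 with only the 6 osnadk1 arrays, 3 of them among the original 6. It was 0 with no prefix block and 0 by the equal-variance test (smallest adjusted p 0.51). It was 6992 with a prefix by treatment term, 8737 in prefix A alone, 781 in prefix B alone, 570 without the prefix A arrays of normal growth, 667 with prefix B arrays only (the last 2 chosen after seeing the data) and 2717 at 2-fold and unadjusted p of 0.05. Leaving out 1 osnadk1 array gave 1 to 2951, with 2951 without normal replicate 3 and 911 without drought replicate 3. Same-numbered arrays did not deviate together (correlations 0.024, 0.011 and 0.0098), and a replicate block gave 0 calls on 12 arrays and 0 on 6. For WT, the count of 186 became 2 with no prefix block, 0 with the replicate block, 1706 without the prefix A arrays of normal growth, and 62 to 503 when 1 osnadk1 array was left out. For the genotype difference, the count of 0 became 285 without the prefix A arrays of normal growth and 0 to 30 when 1 osnadk1 array was left out (30 without normal replicate 3), and was 0 with the replicate block. Probe sets past in both prefixes numbered 77 to 238 in the same and 99 to 237 in opposite directions when 1 prefix A array was left out, the fewest without a drought array; replicate 3 could not be left out.

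Directions turned for genes that go opposite ways in the 2 prefixes. In prefix A alone Lsi1 was -0.62, LTP2-B -1.11 and SAP1 -0.69. In prefix B alone, without the prefix A arrays of normal growth and with prefix B arrays only, TIP1;1 was 1.34, 1.37 and 1.34, TIP2;2 2.16, 1.95 and 2.16, PIP2;2 1.07, 1.02 and 1.07, PAL 2.24, 2.27 and 2.24, and NIA1 1.40, 1.40 and 1.40. PIP1;1 was 0.98 in prefix B alone and with its arrays only, NADP-ME 0.84 in prefix B and 0.87 without the prefix A normal arrays, G6PGH1 -0.60 and -0.59, LSD1 1.58 in prefix B and PP2C68 1.52 without the prefix A normal arrays.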
